A study of Mus musculus with 24 samples.

Results

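The 28 genes described here encode enzymes of cholesterol synthesis, the proteins that sense sterols and switch the pathway on, and 3 genes of sterol uptake, sterol transport and lipid synthesis. They were taken from a list of symbols, paired with mouse Entrez gene IDs, and each was counted in all 24 libraries of the series. All 28 were found among the 36528 gene IDs of the files, and all 28 passed the filter on low counts that left 15429 genes for testing. The samples are primary organoids of mouse small intestine, in which the crypt and villus cell types of the gut lining grow in culture. Their polyadenylated RNA gave 6 groups of 4 libraries: organoids given dFz7-21 for 24 h, Fz7-21S for 24 h, DMSO for 24 h, dFz7-21 for 6 h, Fz7-21S for 6 h and DMSO for 6 h. By the series design dFz7-21 is a peptide blocker of the Wnt receptor Frizzled 7, and DMSO is the solvent used as vehicle. The labels say nothing of Fz7-21S beyond its name, and they give no dose, mouse strain, sex or age.

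Cells build cholesterol from acetyl-CoA through mevalonate, the isoprenoid diphosphates, squalene and lanosterol. The enzymes are transcribed under the control of SREBP-2, encoded by Srebf2, while SREBP-1, encoded by Srebf1, acts more on fatty acid synthesis. Both are made as precursors held in the endoplasmic reticulum: when sterols are plentiful, INSIG proteins keep the escort protein SCAP and its SREBP cargo there, and when sterols are scarce SCAP carries the cargo to the Golgi for cleavage, which frees the part that enters the nucleus. In the intestine, sterol also comes from the diet, and enterocytes take it up through NPC1L1.

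The libraries held 20.4 M to 33.1 M counts each (median 25.1 M). The 6 epithelial markers (Epcam, Cdh1, Vil1, Krt8, Krt18 and Krt19) summed to between 9048 and 17365 CPM, which are counts scaled to a fixed library size with TMM factors, in the 24 libraries. The 3 endothelial markers (Pecam1, Cdh5 and Kdr) summed to 0.0829 to 1.27 CPM, with Cdh5 at 0 counts throughout. The summed level of 8 mesenchymal markers was 895 CPM in dFz7-21 24 h replicate 3, 187 CPM in DMSO 6 h replicate 1 and 157 CPM in DMSO 6 h replicate 2, against 3.09 to 7.56 CPM in the other 21. Of these markers, Dcn and Lum had 0 counts in every library, while the highest count was 3017 for Col1a2 and 450 for Col3a1. Fz7-21S 24 h replicate 4 stood apart from its group, with a chi-square per degree of freedom of 74.9 to 96.1 against the other replicates, where its group otherwise gave 3.66 to 9.34. Cell type markers moved with dFz7-21. The 12 enterocyte markers summed to 7669 to 9009 CPM with dFz7-21, 5243 to 6750 CPM with Fz7-21S and 4569 to 5536 CPM with DMSO at 24 h, and the 7 markers of Lgr5 stem cells to 615 to 844 CPM with dFz7-21, 2877 to 3523 CPM with Fz7-21S and 3120 to 3967 CPM with DMSO. At 24 h over DMSO, 5 of 6 goblet markers rose and 6 of 6 Paneth markers fell, where 18.2% of all genes rose and 17.7% fell. At 6 h, 6 of the 7 stem cell markers fell over DMSO, where 5% of all genes fell. The goblet sums at 6 h were 2202 to 2222 CPM with dFz7-21, 1821 to 1923 CPM with Fz7-21S and 1816 to 1966 CPM with DMSO, and the epithelial sums were 16840.2 to 17365 CPM with dFz7-21, 15585 to 16312 CPM with Fz7-21S and 13657 to 15796 CPM with DMSO. In both lists dFz7-21 did not overlap the others. The enterocyte sums at 6 h overlapped, at 3884 to 4861 CPM with dFz7-21, 4115 to 4583 CPM with Fz7-21S and 3420 to 4513 CPM with DMSO. In bulk RNA, more or fewer cells of a type and more or less RNA per cell cannot be told apart. The part of these shifts in the values below was not tested.

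The stretches of genome at which Hmgcs1, Insig1, Hsd17b7 and Npc1l1 start are shown. These 4 genes stand for the enzymes, the sensors and the uptake of sterols, are among the 5 with the largest log2 fold change at 24 h, and differ in the letters their windows hold. Each runs 5′ to 3′ on the strand of the gene, from 250 bases before the start to 50 bases after it, from RefSeq on GRCm38.p6. Capitals mark the core of a sterol regulatory element as searched here, TCACNCCAC, and the CCAAT box, bound by NF-Y, on either strand (ATTGG on the opposite one). Hmgcs1 lies at chr13:119690101-119690400 on the plus strand, Insig1 at chr5:28071162-28071461 on the plus strand, Hsd17b7 at chr1:169969156-169969455 on the minus strand and Npc1l1 at chr11:6230196-6230495 on the minus strand.
Hmgcs1: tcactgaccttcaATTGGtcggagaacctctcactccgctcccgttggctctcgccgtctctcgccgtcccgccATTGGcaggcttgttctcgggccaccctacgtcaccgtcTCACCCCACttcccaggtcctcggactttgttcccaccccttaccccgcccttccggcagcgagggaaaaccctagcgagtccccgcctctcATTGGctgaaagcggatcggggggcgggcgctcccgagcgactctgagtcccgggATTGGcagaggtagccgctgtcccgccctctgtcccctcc
Insig1: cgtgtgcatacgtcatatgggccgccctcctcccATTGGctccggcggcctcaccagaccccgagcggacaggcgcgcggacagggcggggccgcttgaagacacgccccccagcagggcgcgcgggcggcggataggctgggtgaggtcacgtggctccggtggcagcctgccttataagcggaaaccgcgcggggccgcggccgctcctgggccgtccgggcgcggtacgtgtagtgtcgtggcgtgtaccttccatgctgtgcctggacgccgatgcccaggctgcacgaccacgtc
Hsd17b7: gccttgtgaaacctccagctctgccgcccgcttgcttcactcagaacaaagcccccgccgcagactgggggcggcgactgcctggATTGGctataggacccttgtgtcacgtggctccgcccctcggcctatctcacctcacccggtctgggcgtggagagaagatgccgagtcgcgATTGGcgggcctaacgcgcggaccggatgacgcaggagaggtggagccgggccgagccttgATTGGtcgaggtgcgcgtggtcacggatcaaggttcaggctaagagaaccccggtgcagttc
Npc1l1: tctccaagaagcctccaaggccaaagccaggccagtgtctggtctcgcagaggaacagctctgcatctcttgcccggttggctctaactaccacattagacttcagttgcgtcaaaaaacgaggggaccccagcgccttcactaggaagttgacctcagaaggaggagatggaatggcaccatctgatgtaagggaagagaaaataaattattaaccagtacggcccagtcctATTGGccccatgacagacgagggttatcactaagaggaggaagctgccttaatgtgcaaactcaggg
The Hmgcs1 window holds the sterol element at position -137 from the start, and CCAAT boxes at -237, -176, -45 and 11. The Hsd17b7 window has CCAAT boxes at -165, -73 and -12, that of Insig1 has 1 at -216, and that of Npc1l1 has 1 at -17. The start used for Hsd17b7 lies inside its gene model, whose 5′ end is at 169969242. A RefSeq window was at hand for 24 of the 28 genes. Of these, 21 (87.5%) held a CCAAT box, against 41.1% of 27025 genes, and 20 (83.3%) held the GC box GGGCGG, against 38.2% of genes. The E-box CACGTG was found in 5 (20.8%, against 8.09%), and TCACNCCAC in Hmgcs1 alone (4.17%, against 1.44%). Some genes had more than 1 window, and a gene counted if any of its windows matched. By window, 22 of 32 (68.8%) held a CCAAT box, against 37.4% of all windows. The GC box was in 24 of 32 (75%), against 35.7%. These backgrounds take in every gene with a window, whether expressed in the organoids or not. All 28 genes are among the 15429 tested, and the shares among tested genes were not computed. All motifs were read on both strands, and where 2 motifs overlapped each was counted. A match is a run of letters and not a measured binding site, and a window without the letters says nothing of the factor.

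After 24 h of dFz7-21, 19 of the 28 genes rose over DMSO and none fell by the edgeR test, at an adjusted p below 0.05. Over all genes tested, 18.2% rose and 17.7% fell in that comparison. The median log2 fold change was 0.24 over the 28 genes and -0.01 over all genes. DESeq2 also called 19 higher and 0 lower, and at an unadjusted p below 0.05 only Ggps1 was lower. The changes were small in size, 1.13-fold to 1.80-fold among the 19. In 19 genes all 4 dFz7-21 libraries lay above all 4 DMSO libraries, as they did in 19.4% of all genes. With the 3 libraries that hold mesenchymal transcripts left out, 19 were again called. Without 5 libraries, which also lack replicate 4 of Fz7-21S 24 h and the shallowest library, replicate 2 of DMSO 24 h, 22 rose and 1 fell, Scap, at a log2 fold change of -0.12.

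The same direction was present at 6 h. There 13 of the 28 genes rose over DMSO and none fell, where 6.05% of all genes rose and 5% fell, and the median log2 fold change was 0.20, against 0.01 over all genes. All 13 were among the 19 of 24 h, and at an unadjusted p below 0.05 there were 17 higher and 0 lower. DESeq2 called 15 higher and 0 lower. Leaving out the 3 mesenchymal libraries takes 2 of the 4 DMSO 6 h libraries with it, and 4 genes then kept a call at 6 h (Hmgcs1, Fdft1, Sqle and Sc5d). Among the 9 genes that lost the call, the log2 fold change was 0.41 for Hsd17b7, 0.28 for Msmo1, 0.26 for Fdps, 0.22 for Mvd, 0.21 for Lss, 0.21 for Insig1, 0.20 for Mvk, 0.18 for Cyp51 and 0.18 for Insig2 (adjusted p between 0.0611 and 0.368). Of genes not called with all libraries, Pmvk moved to 0.17 and Npc1l1 to 0.11, and Ebp, Tm7sf2 and Scap turned to values just below 0 (-0.0065, -0.019 and -0.028). Without the 5 libraries 15 were called at 6 h, although the 6 h libraries left are the same as without the 3. The log2 fold changes were then close to those without the 3, and the standard errors were smaller. For Hsd17b7 it was 0.40 with a standard error of 0.06 without the 5, against 0.41 with 0.13 without the 3. With all libraries its standard error was 0.10.

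Against Fz7-21S, dFz7-21 gave 18 genes higher and 0 lower at 24 h, where 16.5% of all genes rose and 17.2% fell, and 8 higher and 0 lower at 6 h, where 3.21% rose and 3.83% fell. DESeq2 called 20 and 10 higher and 0 lower at these times, and 0 were lower at an unadjusted p below 0.05 at either. The median log2 fold change of the 28 genes was 0.22 at 24 h, against -0.01 over all genes, and 0.17 at 6 h, against 0.01. In 13 genes at 24 h and 15 at 6 h every dFz7-21 library lay above every Fz7-21S library, against 13.4% and 11.1% of all genes. The count at 24 h was 9 when only the libraries of these 2 groups entered the fit. The count at 6 h was 1 without dFz7-21 6 h replicate 1, 2 without replicate 3 of that group, 3 without Fz7-21S 6 h replicate 2 and 5 without its replicate 1. It was 6 without any 1 of the other 4 libraries and 16 when only these 2 groups entered the fit. The comparisons over DMSO and over Fz7-21S share the dFz7-21 libraries. Hmgcs1, Mvd, Fdft1, Sqle, Lss, Msmo1, Hsd17b7 and Sc5d (8 genes) rose in all 4 comparisons, as 1.55% of all genes did, and Acss2, Acat2, Idi1, Ggps1, Tm7sf2, Scap and Lpin1 (7 genes) passed in none, as 51.7% of all genes did. Of the 8, only Fdft1 kept its call over Fz7-21S at 6 h on leaving out each library in turn.

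**Figure D1:**
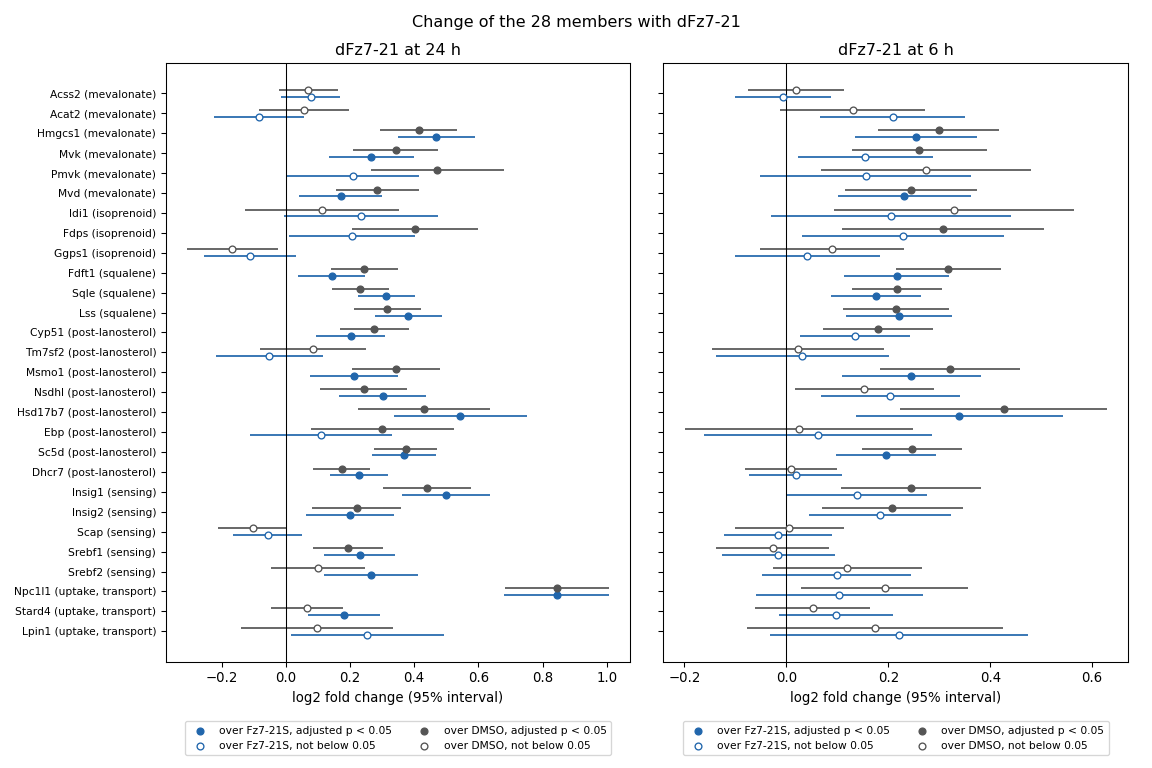
Log2 fold change of each of the 28 genes with dFz7-21 at 24 h (left) and at 6 h (right), over Fz7-21S in blue and over DMSO in grey. Points are the edgeR estimates, lines the 95% intervals and filled points an adjusted p below 0.05: 18 and 19 genes at 24 h, 8 and 13 at 6 h, all to the right of 0.

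The first steps lead from acetyl-CoA to isopentenyl diphosphate. Of the 6 genes here, 4 rose at 24 h and 3 at 6 h with dFz7-21 over DMSO, where 18.2% and 6.05% of all genes rose. Hmgcs1 encodes the cytosolic HMG-CoA synthase, which commits acetyl units to the mevalonate route. It had 834, 904, 792 and 829 CPM with dFz7-21, 606, 647, 597 and 577 CPM with Fz7-21S and 648, 649.7, 592 and 630.2 CPM with DMSO at 24 h. At 6 h it had 713, 623, 693 and 609 CPM with dFz7-21, 559, 531, 595 and 526 CPM with Fz7-21S and 517, 557, 549 and 522 CPM with DMSO. All 4 dFz7-21 libraries lay above the others at both times, and the Fz7-21S and DMSO libraries overlapped. The log2 fold change over DMSO was 0.41 ± 0.06 (SE) at 24 h (adjusted p = 4.24e-06) and 0.30 ± 0.06 (SE) at 6 h (adjusted p = 0.00093), and over Fz7-21S it was 0.47 and 0.25.

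Mvd, the mevalonate diphosphate decarboxylase, had close replicates with dFz7-21. Its 4 libraries there had 191, 193, 193 and 192 CPM at 24 h, against 149, 155, 177 and 202 CPM with Fz7-21S and 163, 160.0, 151 and 157 CPM with DMSO. The dFz7-21 libraries stood above all DMSO libraries, while Fz7-21S replicate 4 reached above them. At 6 h Mvd had 119, 119, 121 and 119.9 CPM with dFz7-21, 99.6, 102, 101 and 106 CPM with Fz7-21S and 98.6, 100.2, 100.4 and 105 CPM with DMSO, with no overlap between dFz7-21 and the rest. The log2 fold change over DMSO was 0.29 ± 0.06 (SE) at 24 h (adjusted p = 0.000879) and 0.24 ± 0.06 (SE) at 6 h (adjusted p = 0.0109). Over Fz7-21S at 24 h it was 0.17 (adjusted p = 0.0373), and the call was lost without Fz7-21S 24 h replicate 1 (0.14, adjusted p = 0.0773) or 2 (0.15, adjusted p = 0.0724) and without the 3 mesenchymal libraries (0.17, adjusted p = 0.0853). Over Fz7-21S at 6 h it was 0.23, a call lost on leaving out 7 of the 8 libraries in turn (adjusted p up to 0.0774). The 6 h call over DMSO was lost without the 3 mesenchymal libraries (0.22, adjusted p = 0.177).

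Mevalonate kinase, encoded by Mvk, rose over DMSO by 0.34 ± 0.06 (SE) at 24 h and 0.26 ± 0.06 (SE) at 6 h on the log2 scale, with 139, 136, 133 and 137 CPM in the dFz7-21 libraries and 114, 109, 103 and 104 CPM in the DMSO libraries at 24 h. These did not overlap. The next kinase, Pmvk, had 165, 170.0, 167 and 169 CPM with dFz7-21, 123, 121, 140.3 and 196 CPM with Fz7-21S and 132, 117, 117 and 118 CPM with DMSO at 24 h. Over DMSO it rose by 0.47 ± 0.10 (SE) on the log2 scale (adjusted p = 0.000651). Over Fz7-21S the log2 fold change was 0.21 and did not pass (adjusted p = 0.109), and 1 library decides this: without Fz7-21S 24 h replicate 4, at 196 CPM, it was 0.41 (adjusted p = 1.17e-06).

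Both genes ahead of HMG-CoA synthase passed in none of the dFz7-21 comparisons. Acss2, which makes acetyl-CoA from acetate in the cytosol, averaged 140.1 ± 5.55 CPM with dFz7-21 and 133 ± 5.82 CPM with DMSO at 24 h (SD, n = 4 each), a log2 difference of 0.07 with a 95% interval of -0.02 to 0.16. Acat2, the cytosolic acetoacetyl-CoA thiolase, averaged 148 ± 6.58 CPM with dFz7-21 and 143 ± 6.44 CPM with DMSO, with an interval of -0.08 to 0.20. The closely related Acat3 lies beside Acat2 on chromosome 17, so the split of reads between them is uncertain. Acss2 also shares sequence with the antisense gene Acss2os, and strand was not given.

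The isoprenoid steps were mixed. Farnesyl diphosphate synthase, Fdps, had 72.5, 75.7, 65.8 and 75.2 CPM with dFz7-21, 52.8, 58.7, 56.7 and 82.8 CPM with Fz7-21S and 61.5, 54.5, 49.3 and 53.4 CPM with DMSO at 24 h. Every dFz7-21 library lay above every DMSO library, but Fz7-21S replicate 4 was the highest of all. The log2 fold change over DMSO was 0.40 ± 0.10 (SE) at 24 h (adjusted p = 0.00188) and 0.31 ± 0.10 (SE) at 6 h (adjusted p = 0.039). The call at 6 h was lost on leaving out 7 of the 8 libraries in turn (adjusted p up to 0.125). Over Fz7-21S at 24 h it was 0.21 (adjusted p = 0.0994) and, without Fz7-21S 24 h replicate 4, 0.39 (adjusted p = 1.02e-05).

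Idi1, the isomerase that supplies dimethylallyl diphosphate, and Ggps1, which adds a further isoprene unit for protein geranylgeranylation and thus leads away from sterols, passed in no dFz7-21 comparison. Idi1 averaged 14.1 ± 1.20 CPM with dFz7-21 and 13.1 ± 1.48 CPM with DMSO at 24 h, and 17.1 ± 1.94 CPM with dFz7-21 and 13.6 ± 1.64 CPM with DMSO at 6 h, where the log2 fold change of 0.33 had the wide interval of 0.09 to 0.56. Ggps1 had 27.8, 29.2, 26.2 and 29.4 CPM with dFz7-21 and 30.5, 32.5, 31.9 and 31.6 CPM with DMSO at 24 h. The 2 groups did not overlap, with dFz7-21 lower, but the log2 fold change of -0.17 did not pass (adjusted p = 0.0636).

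All 3 genes from farnesyl diphosphate to lanosterol rose in each of the 4 dFz7-21 comparisons, as 1.55% of all genes did. Squalene synthase, Fdft1, is the first enzyme committed to sterols. It had 124, 113, 114 and 123 CPM with dFz7-21, 100.4, 104, 99.8 and 103 CPM with Fz7-21S and 93.6, 91.9, 97.2 and 97.0 CPM with DMSO at 6 h, with dFz7-21 above both. The log2 fold change over DMSO was 0.24 ± 0.05 (SE) at 24 h and 0.32 ± 0.05 (SE) at 6 h (adjusted p = 0.000452 and 0.000104). Over Fz7-21S at 24 h it was 0.14 (adjusted p = 0.0305), and the adjusted p was 0.0559 without dFz7-21 24 h replicate 2 and 0.0527 without the 3 mesenchymal libraries. The Fdft1 model shares 774 bases with Ctsb, which had a median count of 12813 against 2698 for Fdft1, so reads of the shared stretch are uncertain.

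Squalene epoxidase, Sqle, a rate-limiting oxygen-dependent step, had 382, 407, 386 and 394 CPM with dFz7-21, 323, 318, 325 and 297 CPM with Fz7-21S and 343, 347, 323 and 324 CPM with DMSO at 24 h. The 6 h libraries had 413, 408, 419 and 379 CPM with dFz7-21, 353, 355, 363 and 361 CPM with Fz7-21S and 350.0, 356, 352 and 335 CPM with DMSO. The dFz7-21 libraries were above the other 8 at each time. Over DMSO the log2 fold change was 0.23 ± 0.04 (SE) at 24 h (adjusted p = 0.000153) and 0.22 ± 0.04 (SE) at 6 h (adjusted p = 0.0012). Over Fz7-21S at 6 h it was 0.18, a call lost on leaving out 3 of the 8 libraries in turn (adjusted p up to 0.0800). Lanosterol synthase, Lss, which closes the 4 sterol rings, rose on the log2 scale over DMSO by 0.32 ± 0.05 (SE) at 24 h and 0.22 ± 0.05 (SE) at 6 h, and over Fz7-21S by 0.38 and 0.22. Its libraries ranged over 316 to 344 CPM with dFz7-21, 228 to 275 CPM with Fz7-21S and 252 to 275 CPM with DMSO at 24 h, with no overlap between dFz7-21 and the rest. Lss overlaps the lncRNA gene 4930483K19Rik on the opposite strand (median count 491, against 6819 for Lss).

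**Figure D2:**
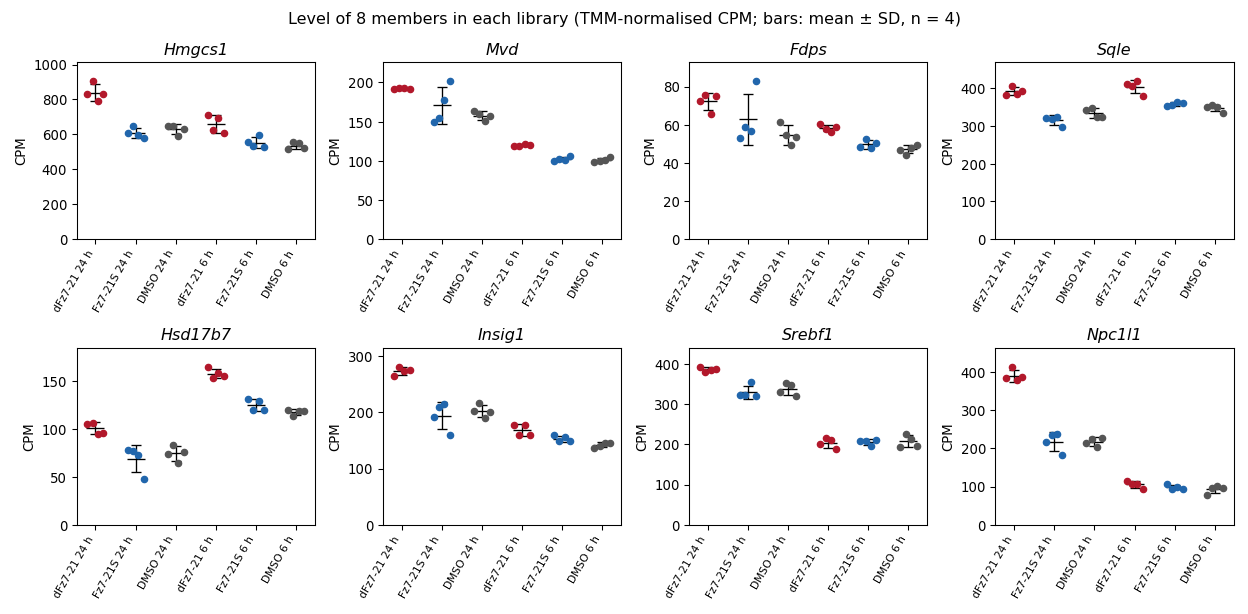
Level of 8 of the genes in each of the 24 libraries, in TMM-normalised CPM on axes that start at 0, by group. Points are libraries, and bars are the mean ± SD (n = 4). The 4 dFz7-21 24 h libraries lie above the 4 DMSO 24 h libraries in all 8 panels, and Fz7-21S 24 h replicate 4 is the highest library of Fdps (82.8 CPM) and the lowest of Hsd17b7 (47.9 CPM).

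From lanosterol to cholesterol, 7 of 8 genes rose at 24 h and 4 of 8 at 6 h with dFz7-21 over DMSO. Of all genes, 18.2% rose at 24 h and 6.05% at 6 h. Hsd17b7, a 3-ketosteroid reductase that takes part in removing the methyl groups at carbon 4, changed most among the enzymes at 6 h. It had 105, 106, 94.2 and 96.1 CPM with dFz7-21, 77.8, 77.3, 72.4 and 47.9 CPM with Fz7-21S and 73.9, 83.4, 64.8 and 76.2 CPM with DMSO at 24 h. The 6 h libraries had 165, 153, 158 and 155 CPM with dFz7-21, 131, 119, 128 and 119.8 CPM with Fz7-21S and 119, 113, 118 and 118 CPM with DMSO. There was no overlap between dFz7-21 and the other groups at either time. The log2 fold change over DMSO was 0.43 ± 0.10 (SE) at 24 h (adjusted p = 0.00151) and 0.43 ± 0.10 (SE) at 6 h (adjusted p = 0.00465). Over Fz7-21S it was 0.54 at 24 h, and 0.34 at 6 h with an adjusted p of 0.0359 that rose above 0.05 on leaving out any of the 8 libraries (up to 0.135).

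Its partners in the same reaction cycle also rose over DMSO at 24 h. Msmo1, the methylsterol monooxygenase, had 384, 428, 379 and 417 CPM with dFz7-21, 330.0, 337, 317 and 404 CPM with Fz7-21S and 347, 310.3, 303 and 307 CPM with DMSO at 24 h, a log2 fold change over DMSO of 0.34 ± 0.07 (SE) (adjusted p = 0.000243). Fz7-21S replicate 4 lay among the dFz7-21 libraries, and all DMSO libraries lay below them. At 6 h the log2 fold change of Msmo1 over Fz7-21S was 0.25, a call lost on leaving out 5 of the 8 libraries in turn (adjusted p up to 0.116). Nsdhl, the decarboxylating dehydrogenase on the X chromosome, ranged over 163 to 186 CPM with dFz7-21, 117 to 152 CPM with Fz7-21S and 140.2 to 159 CPM with DMSO at 24 h. On the log2 scale it rose over DMSO by 0.24 ± 0.07 (SE) at 24 h (adjusted p = 0.00525), and at 6 h the value of 0.15 did not pass (adjusted p = 0.154).

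Cyp51, the lanosterol demethylase that opens this stretch of the pathway, had 477 to 541 CPM with dFz7-21 and 401 to 440.3 CPM with DMSO at 24 h, and rose on the log2 scale by 0.28 ± 0.05 (SE) at 24 h and 0.18 ± 0.05 (SE) at 6 h. The call at 6 h (adjusted p = 0.0247) was lost on leaving out 5 of the 8 libraries in turn (adjusted p up to 0.106). Tm7sf2, a sterol reductase for the double bond at carbon 14, was the 1 gene of this stretch that passed in no dFz7-21 comparison, with 110.4 ± 4.52 CPM with dFz7-21, 114 ± 19.7 CPM with Fz7-21S and 104 ± 6.37 CPM with DMSO at 24 h (SD, n = 4 each). Its model overlaps Vps51 by 9 bases.

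The last enzymes act on the double bonds of the ring. Sc5d, the lathosterol desaturase, had 151, 165, 154 and 165 CPM with dFz7-21, 120.0, 127, 123 and 122 CPM with Fz7-21S and 129, 124, 119 and 119 CPM with DMSO at 24 h. At 6 h it had 169, 156, 164 and 149 CPM with dFz7-21, 139, 132, 148 and 139 CPM with Fz7-21S and 135, 134, 135 and 134 CPM with DMSO. All dFz7-21 libraries were above the rest at both times, with log2 fold changes over DMSO of 0.37 ± 0.05 (SE) at 24 h (adjusted p = 1.18e-06) and 0.25 ± 0.05 (SE) at 6 h (adjusted p = 0.00087). Over Fz7-21S at 6 h it was 0.20, a call lost on leaving out 3 of the 8 libraries in turn (adjusted p up to 0.0785). Ebp, the isomerase named for its emopamil binding, had 143, 143, 137 and 144 CPM with dFz7-21, 112, 107, 119 and 187 CPM with Fz7-21S and 115, 113, 118 and 114 CPM with DMSO at 24 h. It was above all DMSO libraries, while Fz7-21S replicate 4 was far above everything. On the log2 scale it rose over DMSO by 0.30 ± 0.11 (SE) (adjusted p = 0.0312), a call lost without DMSO 24 h replicate 2, 3 or 4 (adjusted p 0.0683, 0.0505 and 0.0632). Over Fz7-21S the log2 fold change was 0.11 (adjusted p = 0.453) with all libraries and 0.35 (adjusted p = 5.05e-07) without Fz7-21S 24 h replicate 4. At 6 h the interval of its log2 fold change over DMSO was -0.20 to 0.25.

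Dhcr7, the reductase of 7-dehydrocholesterol and so the final step of one branch, had 228, 221, 228 and 232 CPM with dFz7-21, 195, 194, 204 and 182 CPM with Fz7-21S and 200.4, 198, 209 and 197 CPM with DMSO at 24 h. The dFz7-21 libraries were above the others, on the log2 scale by 0.17 ± 0.04 (SE) over DMSO (adjusted p = 0.00282) and 0.23 ± 0.04 (SE) over Fz7-21S (adjusted p = 0.000239). At 6 h the log2 difference from DMSO was 0.01 with an interval of -0.08 to 0.10.

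Among the sensing genes, both Insig genes rose over DMSO at both times, Srebf1 rose at 24 h, and Srebf2 and Scap did not pass over DMSO. Insig1, a target of SREBP whose product retains SCAP, had 265, 281, 274 and 276 CPM with dFz7-21, 192, 209.7, 215 and 161 CPM with Fz7-21S and 202, 216, 189.8 and 201 CPM with DMSO at 24 h. The 6 h libraries had 178, 160.0, 177 and 159.8 CPM with dFz7-21, 159.5, 149, 156 and 148 CPM with Fz7-21S and 137, 141, 146 and 145 CPM with DMSO. The dFz7-21 libraries were well above the others at 24 h and just above them at 6 h. Over DMSO the log2 fold change was 0.44 ± 0.07 (SE) at 24 h (adjusted p = 1.2e-05) and 0.25 ± 0.07 (SE) at 6 h (adjusted p = 0.0158). The call at 6 h was lost without dFz7-21 6 h replicate 1 or 3 or DMSO 6 h replicate 1 (adjusted p up to 0.0853). Insig2, its paralog, which is less dependent on SREBP, averaged 42.5 ± 1.14 CPM with dFz7-21, 37.0 ± 3.45 CPM with Fz7-21S and 36.5 ± 2.37 CPM with DMSO at 24 h (SD, n = 4 each). On the log2 scale it rose over DMSO by 0.22 ± 0.07 (SE) at 24 h (adjusted p = 0.012) and 0.21 ± 0.07 (SE) at 6 h (adjusted p = 0.0455), and the call at 6 h was lost on leaving out 6 of the 8 libraries in turn (adjusted p up to 0.16).

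Srebf1 had 394, 382, 386 and 388 CPM with dFz7-21, 323, 322, 355 and 319.8 CPM with Fz7-21S and 332, 354, 349 and 320.2 CPM with DMSO at 24 h. The dFz7-21 libraries lay above the other 8, with a log2 fold change over DMSO of 0.19 ± 0.05 (SE) (adjusted p = 0.00609) and over Fz7-21S of 0.23 ± 0.05 (SE) (adjusted p = 0.00168). At 6 h it was -0.03 over DMSO, with an interval of -0.14 to 0.08. The 3′ ends of Srebf1 and Rai1 share 114 bases on opposite strands (median counts 6973 and 1531). Counts per gene model do not separate the SREBP-1a and SREBP-1c forms.

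Srebf2 had 483, 477, 497 and 459 CPM with dFz7-21, 415, 409, 457 and 313 CPM with Fz7-21S and 437, 461, 439 and 451 CPM with DMSO at 24 h. It did not pass over DMSO (log2 fold change 0.10, adjusted p = 0.292) and passed over Fz7-21S (0.27, adjusted p = 0.00541), where Fz7-21S replicate 4 was the lowest library. Without the 5 libraries named above, the log2 fold change was 0.12 over DMSO (adjusted p = 0.0349) and 0.18 over Fz7-21S (adjusted p = 0.0018). Scap averaged 112 ± 4.71 CPM with dFz7-21 and 120.4 ± 2.21 CPM with DMSO at 24 h, a log2 difference of -0.10 with an interval of -0.21 to 0.00. The 4 dFz7-21 values lay just below the 4 DMSO values.

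Npc1l1, which takes up dietary cholesterol at the brush border of enterocytes, changed most of the 28 genes at 24 h. It had 384, 414, 379.9 and 386 CPM with dFz7-21, 216, 234, 238 and 184 CPM with Fz7-21S and 213, 225, 204 and 229 CPM with DMSO at 24 h, and the dFz7-21 libraries were far above both others. At 6 h it had 115, 106, 108 and 93.7 CPM with dFz7-21, 106, 94.3, 99.0 and 94.1 CPM with Fz7-21S and 78.6, 94.9, 101 and 95.1 CPM with DMSO, which overlapped. The rise over DMSO was 1.80-fold at 24 h, a log2 fold change of 0.85 ± 0.08 (SE) (adjusted p = 9.13e-09), and over Fz7-21S it was 1.79-fold. At 6 h the log2 fold change of 0.19 did not pass (adjusted p = 0.132). Beside it, all 12 enterocyte markers rose over DMSO at 24 h, with a median log2 fold change of 0.70, where 18.2% of all genes rose. At 6 h 1 of 12 rose, with a median of 0.03, where 6.05% of all genes rose.

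Stard4, a carrier of cholesterol between membranes, had 576, 601, 527 and 578 CPM with dFz7-21, 527, 542, 497 and 446 CPM with Fz7-21S and 544, 563, 527 and 544 CPM with DMSO at 24 h. The groups overlapped, and it passed over Fz7-21S (log2 fold change 0.18, adjusted p = 0.0125) but not over DMSO (0.07, adjusted p = 0.368). Lpin1, the phosphatidate phosphatase lipin 1, averaged 44.6 ± 2.96 CPM with dFz7-21, 37.4 ± 7.49 CPM with Fz7-21S and 41.7 ± 1.45 CPM with DMSO at 24 h (SD, n = 4 each). It passed in no dFz7-21 comparison, with an interval over DMSO of -0.14 to 0.33 at 24 h.

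With Fz7-21S over DMSO, 0 of the 28 genes passed at 24 h, where 0.259% of all genes were higher and 0 genes lower, and 0 passed at 6 h, where 0.00648% were higher, by edgeR as well as by DESeq2. At an unadjusted p below 0.05, 1 gene was higher (Pmvk, log2 fold change 0.26) and 2 were lower (Srebf2, -0.17, and Stard4, -0.11) at 24 h, and 0 were at 6 h. Without Fz7-21S 24 h replicate 1 the count at 24 h was 1. The 95% interval of the log2 difference at 24 h was -0.17 to 0.06 for Hmgcs1, -0.20 to 0.08 for Insig1 and -0.16 to 0.16 for Npc1l1. These intervals do not reach the differences of 0.41, 0.44 and 0.85 that dFz7-21 showed over DMSO. The 3 genes are among those that changed most, and the others are not covered by this. With Fz7-21S at 24 h, Ebp averaged 131 ± 37.7 CPM, Pmvk 145 ± 35.2 CPM and Fdps 62.8 ± 13.6 CPM (SD, n = 4 each). With DMSO they averaged 115, 121 and 54.7 CPM, and with dFz7-21 142, 168 and 72.3 CPM.

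**Figure D3:**
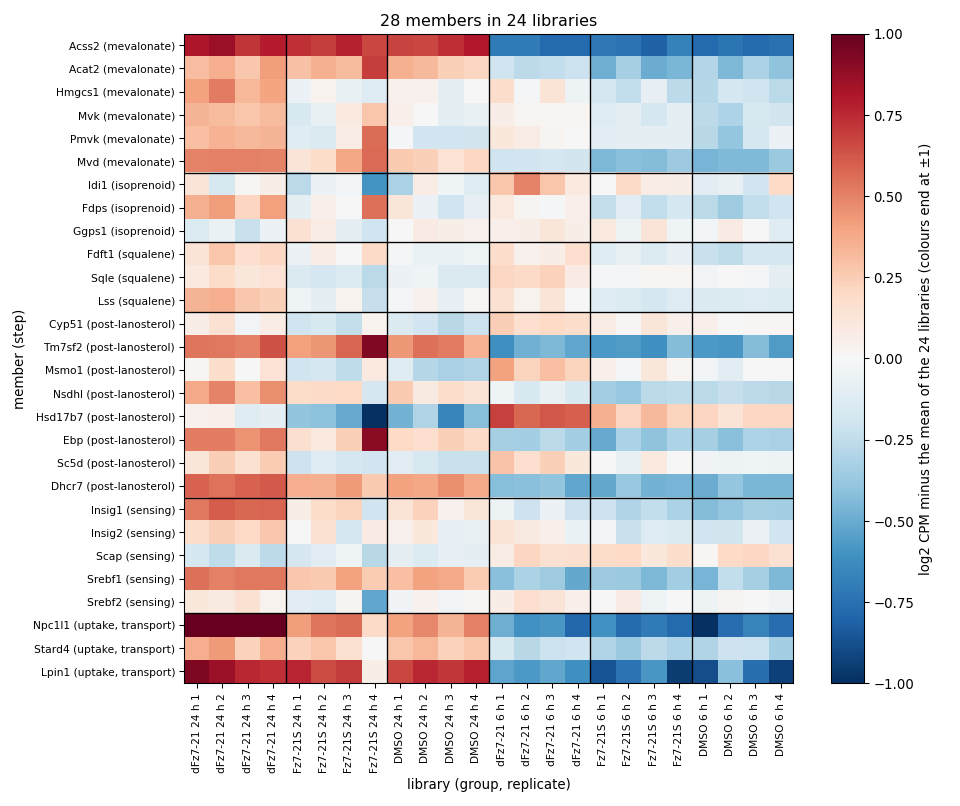
Each of the 28 genes (down) in each of the 24 libraries (across), as log2 CPM minus its mean over the libraries, with colours ending at ±1 and black lines between groups and between steps. The 4 dFz7-21 24 h libraries are red for most genes, and Fz7-21S 24 h replicate 4 departs from its group in both directions, with Ebp at 187 CPM and Hsd17b7 at 47.9 CPM.

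The genes also differed between the times within each treatment, and not all in 1 direction. At 24 h over 6 h, 18 genes rose and 6 fell with dFz7-21 (29.8% and 30.1% of all genes), 16 rose and 8 fell with Fz7-21S (31% and 28.1%), and 16 rose and 5 fell with DMSO (27.3% and 24.9%). Of these, 14 rose and 4 fell in all 3 treatments, where 20% of all genes rose and 18.4% fell in all 3. The largest rises in DMSO were those of Acss2, with 133 ± 5.82 CPM at 24 h and 47.9 ± 0.835 CPM at 6 h (2.79-fold), Lpin1 (2.75-fold), Npc1l1 (2.35-fold), Tm7sf2 (averaging 104 ± 6.37 CPM at 24 h and 51.9 ± 2.63 CPM at 6 h), Dhcr7 (1.81-fold) and Srebf1 (1.63-fold). These 6 include Acss2, Lpin1 and Tm7sf2, which no dFz7-21 comparison called.

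The 4 that fell with time in all 3 treatments were Hsd17b7, Cyp51, Msmo1 and Scap. Hsd17b7 averaged 74.6 ± 7.69 CPM at 24 h and 117 ± 2.90 CPM at 6 h in DMSO, a log2 fold change of -0.65 (adjusted p = 6.01e-06), and -0.65 in dFz7-21. Cyp51 and Msmo1 fell by 0.23 and 0.22 on the log2 scale in DMSO. Hsd17b7, Cyp51 and Msmo1 thus rose with dFz7-21 at both times over DMSO and fell with time. Their neighbours in the pathway Nsdhl (log2 fold change with time 0.43), Ebp (0.54) and Dhcr7 (0.86) rose with time. With dFz7-21 over DMSO these neighbours passed at 24 h and not at 6 h. Sc5d, which rose with dFz7-21 at both times, averaged 123 ± 4.94 CPM at 24 h and 134 ± 0.684 CPM at 6 h in DMSO. Sqle moved little with time in DMSO (-0.06, interval -0.15 to 0.03).

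**Figure D4:**
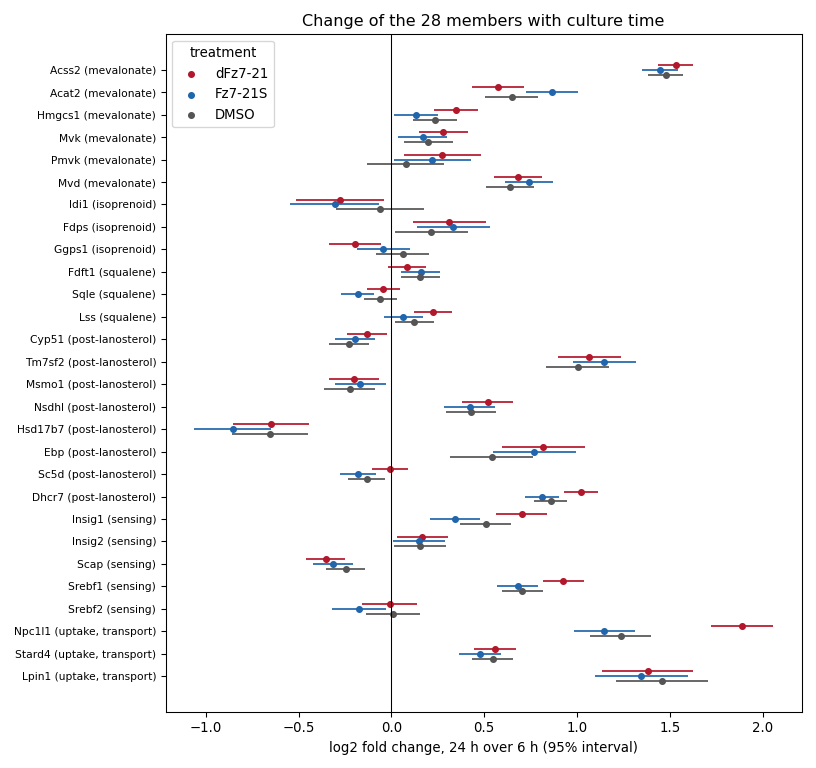
Log2 fold change of each of the 28 genes at 24 h over 6 h within each treatment, with 95% intervals. The 3 treatments lie close together for most genes. Npc1l1 stands apart, at 1.89 in dFz7-21, 1.15 in Fz7-21S and 1.23 in DMSO, while Hsd17b7 is the lowest in all 3.

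Whether the effect of dFz7-21 differed between the times was tested as an interaction term. Over DMSO, Npc1l1 was the 1 gene of the 28 that passed, with an effect larger at 24 h than at 6 h by 0.65 ± 0.11 (SE) on the log2 scale (adjusted p = 0.000235), where 7.37% of all genes passed in that direction and 5.78% in the other. Over Fz7-21S, 4 of the 28 passed, all with the larger effect at 24 h (5.83% of all genes, with 5.1% in the other direction): Npc1l1 (0.74), Insig1 (0.36), Srebf1 (0.25) and Dhcr7 (0.21). For Srebf1 and Dhcr7 the term over DMSO was 0.22 (adjusted p = 0.0552) and 0.17 (adjusted p = 0.0809). For Hmgcs1, Sqle, Msmo1 and Hsd17b7 the intervals of the term over DMSO were -0.05 to 0.28, -0.11 to 0.14, -0.17 to 0.22 and -0.28 to 0.29. No member passed with a smaller effect at 24 h by edgeR, and at an unadjusted p below 0.05 there was 1 in each comparison (DESeq2 called 0). These counts depend on the fit: over DMSO DESeq2 called 3 and the fit of only the groups compared 7, and over Fz7-21S DESeq2 called 7, and 9 were called without Fz7-21S 24 h replicate 4.

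Per base of transcript, on the deposited RPKM scale, the pathway was led by Hmgcs1 (228 ± 13.8 RPKM) and Msmo1 (222 ± 14.1) in the dFz7-21 24 h libraries, and by Msmo1 (172 ± 11.3 RPKM) and Hmgcs1 (169 ± 6.99) in the DMSO 24 h libraries (SD, n = 4 each), pairs that do not differ beyond their spread. Sqle followed at 144 ± 4.38 RPKM with dFz7-21 and 121 ± 4.35 RPKM with DMSO. The lowest levels were those of Insig2, Lpin1, Ggps1 and Idi1 in both groups, at 10.8, 6.63, 5.21 and 4.94 RPKM with dFz7-21 and at 9.11, 6.12, 5.76 and 4.51 RPKM with DMSO. Among the sensing genes the order in dFz7-21 was Insig1 (104 RPKM), Srebf2 (85.5 RPKM), Srebf1 (83.0 RPKM), Scap (24.2 RPKM) and Insig2, of which Srebf2 and Srebf1 lie within their spread of each other. Npc1l1 was at 84.3 ± 3.66 RPKM with dFz7-21 and 46.3 ± 2.39 RPKM with DMSO at 24 h.

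Beside the 28, 7 further lists of sterol and lipid genes were examined, which were drawn up with earlier results of these data known. Their counts stand beside 18.2% of all genes higher and 17.7% lower with dFz7-21 over DMSO at 24 h, and 6.05% higher and 5% lower at 6 h. Of 8 further genes of synthesis and uptake, 5 rose with dFz7-21 over DMSO at 24 h (median log2 fold change 0.23), and 2 rose at 6 h. The largest change was in Por, the reductase that passes electrons to Cyp51 and squalene epoxidase, with 328, 367, 355 and 349 CPM with dFz7-21, 218, 243, 259 and 279 CPM with Fz7-21S and 222, 212, 219 and 219 CPM with DMSO at 24 h, a log2 fold change over DMSO of 0.68 ± 0.07 (SE) (adjusted p = 1.43e-08). Cyb5r3, which reduces cytochrome b5 for the desaturase and demethylation steps, rose by 0.55 ± 0.07 (SE) on the log2 scale. Of 9 genes of SREBP cleavage and sterol-regulated degradation, 3 rose and 2 fell at 24 h (median 0.01). The log2 fold changes were 0.40 for Erlin1 and 0.26 for Syvn1, both of the machinery that degrades proteins of the endoplasmic reticulum.

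The lists on the far side of the pathway were less even. Of 15 fatty acid genes of the SREBP-1 arm that were tested, 6 rose and 2 fell at 24 h (median 0.27), and 3 rose and 2 fell at 6 h. Scd1, the stearoyl-CoA desaturase, had 575, 675, 599.6 and 628 CPM with dFz7-21, 304, 349, 335 and 266 CPM with Fz7-21S and 291, 308, 303 and 314 CPM with DMSO at 24 h, a rise of 1.03 ± 0.08 (SE) over DMSO on the log2 scale, and malic enzyme Me1 rose by 0.77 ± 0.09 (SE). The delta-5 desaturase Fads1 went the other way, with 141, 130.5, 154 and 148 CPM with dFz7-21 and 217, 237, 246 and 231 CPM with DMSO, a log2 fold change of -0.70 ± 0.07 (SE). Of 8 genes of sterol efflux and LXR targets, 5 rose at 24 h (median 0.54), and 1 fell at 6 h (median -0.07). They include the sterol exporter Abcg5 (log2 fold change 0.60), the LXR-alpha gene Nr1h3 (0.61) and the phospholipid enzyme Lpcat3 (0.55). By the interaction term over DMSO, 4 of the 8 had a larger effect at 24 h than at 6 h, where 7.37% of all genes did.

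Of 11 genes of sterol storage and intracellular transport, 6 rose and 3 fell at 24 h. The esterifying enzymes moved apart: Soat2, the form of enterocytes and hepatocytes, had 87.4, 97.4, 91.9 and 95.8 CPM with dFz7-21, 56.2, 61.8, 64.2 and 59.8 CPM with Fz7-21S and 57.5, 56.8, 52.9 and 59.0 CPM with DMSO, while Soat1, the widespread form, had 82.4, 74.3, 71.9 and 70.5 CPM with dFz7-21, 136, 137, 133 and 134 CPM with Fz7-21S and 127, 140.1, 149 and 129 CPM with DMSO. In neither gene did the dFz7-21 libraries overlap the others, and the log2 fold changes over DMSO were 0.72 ± 0.07 (SE) for Soat2 and -0.87 ± 0.06 (SE) for Soat1. Soat1 was already lower at 6 h (-0.29, adjusted p = 0.00156). Scarb1, a receptor for lipoprotein cholesterol, rose by 0.73 ± 0.04 (SE) on the log2 scale at 24 h. Of 13 genes that use isoprenoids for prenylation, ubiquinone or dolichol, 1 rose (Pdss2, log2 fold change 0.24) and 2 fell (Pdss1, -0.37, and Fntb, -0.19), where 18.2% of all genes rose and 17.7% fell, and the median was 0.00. Of 5 oxysterol and bile acid genes 2 had enough counts to be tested, with log2 fold changes of 0.05 and 0.18 that did not pass.

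**Figure D5:**
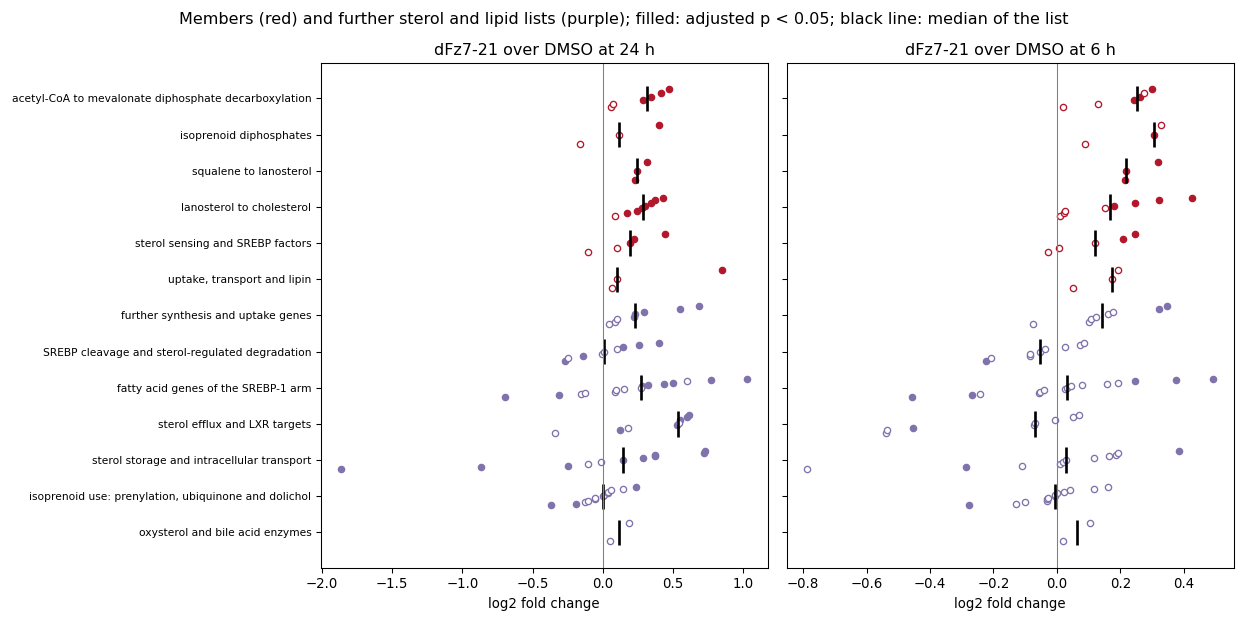
Log2 fold change of dFz7-21 over DMSO at 24 h (left) and 6 h (right) for the 28 genes by step (red) and for 7 further lists (purple), with filled points for an adjusted p below 0.05 and a black line at the median of each list. The squalene to lanosterol genes are all filled at both times, while the efflux list has a median of 0.54 at 24 h and -0.07 at 6 h.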

How the data were processed

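Polyadenylated RNA of 24 libraries was aligned with GSNAP to GRCm38, per the submitters' processing notes. The authors deposited raw counts of uniquely aligned reads and RPKM per Entrez gene ID (size-factor adjusted, per the file headers). Neither the aligner version nor the strand of counting was stated in the sources used here. Of 36528 IDs, 31049 were paired with a RefSeq symbol. The 28 genes, the lists and the tests were chosen with earlier results of these data known. Counts were fitted with edgeR 4.0.16 (R 4.3.3, quasi-likelihood F test, TMM scaling, filterByExpr), 1 fit over all 24 libraries, with Benjamini-Hochberg adjustment over 15429 genes and a threshold of 0.05. CPM are TMM-scaled, and SD are over n = 4 libraries; deposited RPKM were used only to order genes by level. The test was checked on counts simulated from the means and spreads of this fit, with no library set apart from its group. That check cannot show how outlying libraries act on the calls. Since no label ties a replicate to its own culture, the p-values cover only library-to-library spread, which may be technical. Alternatives were DESeq2 1.42.0, RLE scaling, no filter, a replicate block, only the groups compared, and fewer libraries. In the added alternative, chosen after the data were seen, 5 libraries were left out. Genes sharing reads with another gene model are named as uncertain.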

Additional observations from a re-analysis of the deposited data

Results flagged for a closer look

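Within groups of 4 libraries, 1 library stood far from the other 3 in 10 of 168 combinations of gene and group, by Dixon's criterion, which chance meets in about 1 of 20. In Fz7-21S 24 h, replicate 4 was high in Acat2 (189 CPM) and Ebp (187 CPM) and low in Nsdhl (117 CPM), and replicate 3 was high in Srebf1 (355 CPM). In DMSO 24 h, replicate 1 was high in Pmvk (132 CPM) and Msmo1 (347 CPM). In dFz7-21 6 h, replicate 1 was high in Mvk (115 CPM). In DMSO 6 h, replicate 3 was high in Tm7sf2 (55.9 CPM) and Insig2 (35.1 CPM), and replicate 2 was low in Hsd17b7 (113 CPM).

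The effect of dFz7-21 differed between 24 h and 6 h by the interaction term of edgeR in 5 instances. It was larger at 24 h by 0.65 on the log2 scale for Npc1l1 over DMSO, and over Fz7-21S by 0.74 for Npc1l1, 0.36 for Insig1, 0.25 for Srebf1 and 0.21 for Dhcr7. The summed enterocyte markers were at 7669 to 9009 CPM with dFz7-21, 5243 to 6750 CPM with Fz7-21S and 4569 to 5536 CPM with DMSO at 24 h. At 6 h they were at 3884 to 4861 CPM with dFz7-21, 4115 to 4583 CPM with Fz7-21S and 3420 to 4513 CPM with DMSO. Their part in the values of Npc1l1 was not tested.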

How the results depend on the processing

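The 19 genes called with dFz7-21 over DMSO at 24 h came to 18 to 19 on leaving out 1 library at a time, and to 23 without 5 libraries. At 6 h the 13 became 9 to 14, and 4 without the 3 mesenchymal libraries. Without 5 libraries, which leaves the same 6 h libraries, the count at 6 h was above 13. Over Fz7-21S at 24 h the 18 became 17 to 21, 9 with only the groups compared and 22 without 5 libraries; at 6 h the 8 became 1 to 6, 5 with no filter, 16 with only the groups compared and 17 without 5 libraries. With Fz7-21S over DMSO, leaving out 1 library gave 0 to 1 at 24 h and 0 at 6 h. Between the times it gave 20 to 23 with dFz7-21, 20 to 23 with Fz7-21S and 19 to 22 with DMSO. The interaction over DMSO (1 gene) gave 2 with RLE scaling, 2 with the replicate block, 3 with DESeq2, 7 with only the groups compared, 6 without 5 libraries and 1 to 3 without 1 library. That over Fz7-21S (4 genes) gave 7 with DESeq2, 11 without 5 libraries and 3 to 9 without 1 library. The cause of these differences was not tested. Deviations from the group means correlated at -0.516 to 0.320 between libraries of the same replicate number (median 0.013, 5 of 60 over 0.1). Between libraries of other numbers they correlated at -0.498 to 0.586 (median -0.001, 10 of 180 over 0.1). Correlations over all genes cannot show whether equal numbers share a culture or a batch. The replicate block lowered the 6 h count over DMSO to 12.

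Signs turned only in comparisons in which the gene was not called with all libraries. Over DMSO at 6 h, Dhcr7 was -0.0080 with no filter and -0.0056 with only the groups compared, and Scap -0.011 and -0.0083. Without the 3 mesenchymal libraries Ebp was -0.0065, Scap -0.028 and Tm7sf2 -0.019, and without 5 libraries they were -0.013, -0.035 and -0.025. Without 5 libraries, Acat2 was 0.072 and Tm7sf2 0.12 over Fz7-21S at 24 h. On leaving out 1 library, values over DMSO at 6 h ran over -0.015 to 0.029 for Dhcr7, -0.0015 to 0.038 for Ebp, -0.035 to 0.028 for Scap, -0.0085 to 0.060 for Tm7sf2 and -0.057 to 0.016 for Srebf1. Over Fz7-21S at 24 h they ran over -0.096 to 0.042 for Acat2, -0.084 to 0.094 for Tm7sf2 and -0.074 to 0.0083 for Scap. Over Fz7-21S at 6 h they ran over -0.043 to 0.0049 for Scap, -0.0034 to 0.040 for Dhcr7, -0.037 to 0.012 for Acss2 and -0.045 to 0.012 for Srebf1. Precision was lowest for Idi1, at 14.1 ± 1.20 CPM with dFz7-21 and 13.1 ± 1.48 CPM with DMSO at 24 h, with a standard error of 0.12 for the log2 fold change between them.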
